A study of Mus musculus with 6 samples.

Results

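The genes described here encode the core cyclins of the cell cycle and the cyclin-dependent kinases (CDKs) they switch on, in small intestinal organoids treated with MMK-1. There are 10 of them among the 21397 genes of the deposited table, selected by gene name with earlier results of these data known. They are the D cyclins Ccnd1, Ccnd2 and Ccnd3 with their kinases Cdk4 and Cdk6, the E cyclins Ccne1 and Ccne2, and the later cyclins Ccna2 and Ccnb1 with the mitotic kinase Cdk1. All 10 were present in the table and passed the filter on low values.

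Organoids are small spheres of epithelium grown in a gel from intestinal crypts. Those sequenced here came from Fpr2f/f mice, in which the gene of formyl peptide receptor 2 (FPR2) is flanked by loxP sites, and both groups carried this floxed allele without a Cre transgene named in the labels. The treated group received MMK-1, a synthetic peptide that activates FPR2, until day 5, and the control group received the vehicle, 0.1% DMSO. Each group held 3 libraries, and the study's legends describe a sample as organoids pooled from 3 mice. The protocol text gives the MMK-1 dose as 1 μM, whereas the treatment label gives 1 mM, and the former was taken as the dose. Nothing in the labels says that the 3 libraries of a group were separate cultures, so the p-values measure the spread between these libraries, which may be technical.

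A cell that enters the cycle first raises D cyclins, which bind CDK4 or CDK6 and start to phosphorylate the retinoblastoma protein and its relatives, the pocket proteins. This releases E2F factors, which switch on E cyclins and, later, cyclin A2. Cyclin E with CDK2 drives the start of DNA replication, cyclin A2 acts through S phase and G2, and cyclin B1 with CDK1 drives mitosis. In the intestine, dividing cells lie in the crypts, where stem cells and their transit-amplifying progeny receive Wnt signals, and the differentiated cells of the villi have left the cycle.

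Levels are given as FPKM, the fragments on a gene divided by its length and by the library total, so that levels can be compared between genes. Differences were tested with limma on log2(FPKM + 1) over the 10551 genes whose mean FPKM reached 1, and all adjusted p-values are Benjamini-Hochberg values over these genes. The pseudocount of 1 makes the log2 fold changes smaller than those of the plain ratio, most of all in genes of low FPKM such as Ccne2. The libraries held 35512739 to 37537463 fragments. The groups parted on the first principal component (92.4% of the variance), and MMK-1 replicate 3 stood apart from the other MMK-1 libraries on the second (4.48%). Between libraries, the chi-square over genes divided by its degrees of freedom was 38.6 and 45.1 for replicate 3 against the other MMK-1 libraries, 3.84 within those others and at most 5.58 within controls. Results that replicate 3 moved are therefore given with and without it.

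MMK-1 libraries held more of all 10 transcripts, each with an adjusted p under the threshold of 0.05 in limma, and their log2 fold changes ran from 0.56 in Ccnd3 to 1.51 in Ccnd1. Of all genes tested, 48.5% passed this threshold in the same direction and 24.7% in the other, so a pass alone was common. The median log2 fold change was 0.95 for the 10 genes and 0.13 for all genes tested. The 10 genes were chosen with earlier results of these data known, which these counts and medians do not allow for. The study's thresholds, a fold of 2 or more with an unadjusted p up to 0.05, were reached by Ccnd1, Ccne2 and Ccna2, against 3.39% of all genes tested that were higher and 3.65% that were lower at these thresholds. With TPM, a pseudocount of 0.1 or limma-voom on fragments, Cdk6 and Ccnb1 passed too, and 558 to 726 in place of 358 of all genes were higher. In none of the 10 genes did a control library reach the lowest MMK-1 library, a pattern found in 50.5% of all genes tested, with the reverse in 26.3%. With 3 libraries against 3, the exact two-sided permutation p was 0.1 for each gene, the smallest this design allows. More cells of a dividing type and more RNA per cell cannot be told apart in such bulk libraries.

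**Figure D1:**
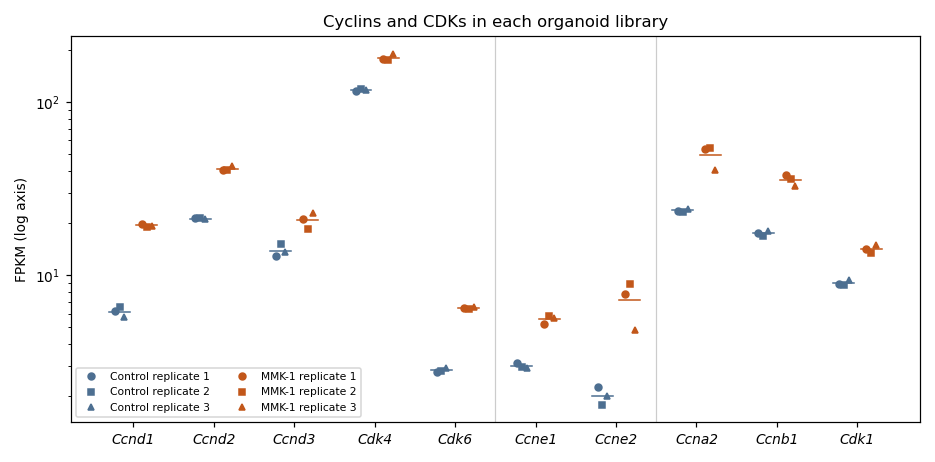
FPKM on a log axis of the 10 genes in each of the 6 libraries, with control libraries in blue, MMK-1 libraries in orange, replicates by symbol and the group mean as a line; vertical lines part the genes of G1, of the G1/S transition and of S phase to mitosis. The groups do not overlap in any gene, and the triangle of MMK-1 replicate 3 lies below the other MMK-1 libraries in Ccne2, Ccna2 and Ccnb1.

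The balance of the calls over all genes depended on the scaling between libraries. After upper-quartile scaling the median of all genes tested was -0.00356, a shift of 0.14, with 34.8% of genes higher and 37.0% lower at the adjusted threshold. All 10 cyclin and CDK genes were still higher, with log2 fold changes from 0.41 to 1.36 and a median of 0.80. Under this scaling only Ccnd1 and Ccne2 of the 10 reached a fold of at least 2, against 2.13% of all genes higher and 4.63% lower.

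Among the D cyclins, Ccnd1 rose most and Ccnd3 least. Ccnd1 (NCBI gene 12443; chr7:144929931-144939925 of GRCm38, minus strand) encodes cyclin D1 and is a textbook target of Wnt signaling. Its FPKM was 6.22, 6.54 and 5.75 in controls and 19.9, 18.9 and 19.3 with MMK-1. The MMK-1 libraries lay close together, far above all controls. The mean rose from 6.17 ± 0.397 (SD, n = 3) to 19.4 ± 0.467 (SD, n = 3), a fold of 3.14. The log2 fold change was 1.51 (SE 0.0526, 95% interval 1.39 to 1.63, limma adjusted p = 5.7e-08), which ranked 88 among all genes tested. It stayed between 1.47 and 1.55 with each library left out in turn, so no single library carried it.

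Ccnd2 (NCBI gene 12444; chr6:127125162-127152193, minus strand) encodes cyclin D2 and was the most abundant of the D cyclin transcripts in every library. Its FPKM was 21.3, 21.3 and 21.0 in controls and 40.6, 40.3 and 42.7 with MMK-1. The control libraries differed by a log2 range of 0.02, the narrowest of the 10 genes. The means were 21.2 ± 0.188 and 41.2 ± 1.3 (SD, n = 3 each), a fold of 1.94 and a log2 fold change of 0.93 (SE 0.0406, limma adjusted p = 1.9e-07).

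Ccnd3 (NCBI gene 12445; chr17:47505051-47599691, plus strand) encodes cyclin D3. Its FPKM was 12.95, 15.1 and 13.6 in controls and 21.1, 18.6 and 23.0 with MMK-1. The spread was wider than in the other D cyclins, and the lowest MMK-1 library, replicate 2, still lay above the highest control. The means were 13.9 ± 1.08 and 20.9 ± 2.18 (SD, n = 3 each), a fold of 1.51, and the log2 fold change of 0.56 (SE 0.0803, limma adjusted p = 0.00025) was the smallest of the 10.

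The D cyclins did not rise in step, so the make-up of their transcripts shifted. Their summed FPKM went from 41.3 ± 1.42 to 81.5 ± 3.58 (SD, n = 3 each), a fold of 1.98. Of this sum, Ccnd1 made up 15.4%, 15.2% and 14.3% in controls and 24.3%, 24.3% and 22.8% with MMK-1. The share of Ccnd3 went the other way, from 33.6% ± 1.58 to 25.6% ± 1.57 (SD, n = 3 each). Ccnd2 held 51.5% ± 1.6 of the sum in controls and 50.6% ± 1.05 with MMK-1 (SD, n = 3 each), and its libraries overlapped between the groups.

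Ratios within a library do not depend on the scaling between libraries, and 7 of them were compared by an exact two-sided permutation test with adjustment over the 7. The ratio of Ccnd1 to Ccnd2 was 0.291, 0.307 and 0.274 in controls and 0.489, 0.469 and 0.453 with MMK-1, a log2 difference of 0.69 (SE 0.0574). That of Ccnd1 to Ccnd3 differed by 1.06 on the log2 scale (SE 0.0965), with ratios of 0.423 to 0.48 in controls and of 0.843 to 1.02, near equal levels, with MMK-1. That of Ccnd2 to Ccnd3 differed by 0.37 (SE 0.0925). None of these ratios overlapped between the groups, and each had the smallest exact permutation p the design allows, 0.1 (adjusted p = 0.14), so none could pass 0.05.

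**Figure D2:**
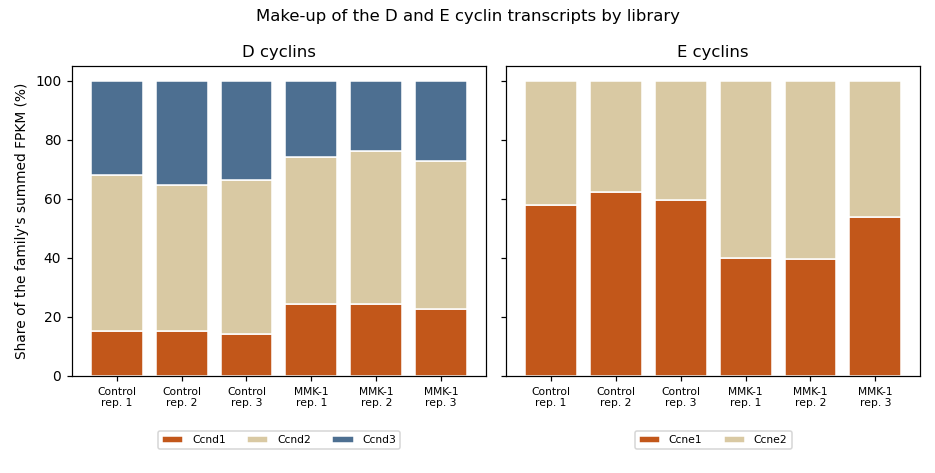
Share in percent of the summed FPKM of the D cyclins (left) and of the E cyclins (right) that each gene holds, with 1 bar per library. The Ccnd1 share lies between 14.3% and 15.4% in controls and between 22.8% and 24.3% with MMK-1, and the Ccne2 share of MMK-1 replicate 3, 46.1%, lies between that of the controls and that of the other MMK-1 libraries.

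CDK4 and CDK6 are the kinases that D cyclins activate. Cdk4 (NCBI gene 12567; chr10:127063534-127067920, plus strand) had the highest level of the 10 genes in every library. Its FPKM was 116, 119 and 118 in controls and 177, 175 and 191 with MMK-1. The fold of the means was 1.53, from 118 ± 1.53 to 181 ± 8.47 (SD, n = 3 each), and the log2 fold change was 0.61 (SE 0.0433, limma adjusted p = 3.2e-06). The rise was moderate in size, and MMK-1 replicate 3 was the highest library.

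Cdk6 (NCBI gene 12571; chr5:3341485-3531008, plus strand) was far less abundant and rose more. Its FPKM was 2.76, 2.79 and 2.91 in controls and 6.47, 6.42 and 6.53 with MMK-1. Both groups were tight, at 2.82 ± 0.0799 and 6.47 ± 0.0556 (SD, n = 3 each). The fold of the means was 2.29, whereas the log2 fold change with the pseudocount was 0.97 (SE 0.0469, limma adjusted p = 3.4e-07), just under a fold of 2. Its long transcript gave 1251 to 1317 fragments in controls and 2777 to 2934 with MMK-1, so counting error was small at this FPKM. The ratio of Cdk6 to Cdk4 went from between 0.0234 and 0.0247 to between 0.0343 and 0.0367, a log2 difference of 0.58 (SE 0.0399, exact permutation p = 0.1, adjusted p = 0.14), or 0.35 with the pseudocount of 1 that the fold changes use. Cdk6 nevertheless remained a small part of the pair, with 2.34% ± 0.0665 of the summed FPKM in controls and 3.46% ± 0.126 with MMK-1 (SD, n = 3 each).

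The promoter of Cdk4 is shown because CACGTG, the E-box that MYC and its partner MAX bind, recurs in it. RefSeq gives 300 bases, from 250 before to 50 after the start of transcription, at chr10:127063285-127063584 of GRCm38.p6 on the plus strand, with the matches in capitals.
Cdk4: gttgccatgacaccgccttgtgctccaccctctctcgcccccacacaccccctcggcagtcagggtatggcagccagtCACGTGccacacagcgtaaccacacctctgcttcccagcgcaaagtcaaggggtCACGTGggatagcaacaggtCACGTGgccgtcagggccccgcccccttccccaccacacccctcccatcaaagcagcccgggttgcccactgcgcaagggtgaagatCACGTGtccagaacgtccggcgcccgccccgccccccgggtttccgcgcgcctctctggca
CACGTG reads the same on both strands and matched at positions -172, -118, -98 and -11 from the start. It occurs at least once in 7.2% of the 32544 promoter windows of this length. Cdk6 held a match, at -220, and the windows of Ccnd3, Ccne1, Ccnb1 and Cdk1 held none. A match describes letters and not a bound factor.

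The E cyclins are switched on by E2F factors and activate CDK2 at the start of S phase. Ccne1 (NCBI gene 12447; chr7:38097984-38107534, minus strand) had an FPKM of 3.10, 2.97 and 2.93 in controls and 5.21, 5.83 and 5.69 with MMK-1. The fold of the means was 1.86, from 3.0 ± 0.0894 to 5.58 ± 0.325 (SD, n = 3 each). The groups were well apart, with a log2 fold change of 0.72 (SE 0.0552, limma adjusted p = 5.3e-06). It rested on 214 to 227 fragments in control libraries and 362 to 413 in MMK-1 libraries, the fewest of the 10 genes when treated.

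Ccne2 (NCBI gene 12448; chr4:11191351-11204779, plus strand) had the lowest level of the 10 genes in controls and the largest fold of plain FPKM. Its FPKM was 2.26, 1.78 and 2.00 in controls and 7.82, 8.90 and 4.85 with MMK-1. MMK-1 replicate 3 lay well below the other MMK-1 libraries and still above every control. The mean went from 2.01 ± 0.24 to 7.19 ± 2.09 (SD, n = 3 each), a fold of 3.57. The log2 fold change was 1.41 (SE 0.17, 95% interval 1.02 to 1.80, limma adjusted p = 8.6e-05), the widest interval of the 10. Without MMK-1 replicate 3 it was 1.64, and after correction for GC content with all libraries it was 1.12.

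The balance of the E cyclins therefore differed between MMK-1 libraries. The ratio of Ccne2 to Ccne1 was 0.73, 0.601 and 0.682 in controls and 1.5, 1.52 and 0.854 with MMK-1. Ccne1 was the more abundant E cyclin in all controls and in MMK-1 replicate 3, and Ccne2 in MMK-1 replicates 1 and 2. The log2 difference was 0.90 (SE 0.287, exact permutation p = 0.1, adjusted p = 0.14), 1.18 without MMK-1 replicate 3 and 0.52 after correction for GC content. Their summed FPKM rose from 5.01 ± 0.314 to 12.8 ± 2.11 (SD, n = 3 each), a fold of 2.55, or 2.77 without MMK-1 replicate 3. Ccne2 held 40.1% of this sum in controls and 55.5% with MMK-1, or 60.2% without that library.

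The genes of S phase to mitosis were led by Ccna2 and Ccnb1, with folds of mean FPKM of 2.08 and 2.03, and their kinase Cdk1 rose by a fold of 1.57. Ccna2 (NCBI gene 12428; chr3:36564865-36572150, minus strand) had an FPKM of 23.6, 23.3 and 24.3 in controls and 53.6, 54.1 and 40.4 with MMK-1. As in Ccne2, MMK-1 replicate 3 was the low one. The means were 23.7 ± 0.492 and 49.4 ± 7.8 (SD, n = 3 each), and the log2 fold change was 1.01 (SE 0.1, limma adjusted p = 2.5e-05). Ccna2 lay just inside the fold threshold of 2, and its log2 fold change was 0.95 without MMK-1 replicate 1, 0.94 without MMK-1 replicate 2 and 1.15 without MMK-1 replicate 3.

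Ccnb1 (NCBI gene 268697; chr13:100778650-100786570, minus strand) had an FPKM of 17.6, 16.8 and 18.1 in controls and 37.9, 36.0 and 32.6 with MMK-1. The fold of the means was 2.03, from 17.5 ± 0.623 to 35.5 ± 2.67 (SD, n = 3 each). Its log2 fold change of 0.98 (SE 0.0593, limma adjusted p = 1.3e-06) lay just outside the fold threshold, and it was 1.04 without MMK-1 replicate 3. The ratio of Ccnb1 to Ccna2 overlapped between the groups, at 0.722 to 0.748 in controls and 0.665 to 0.808 with MMK-1. The log2 difference was -0.03 (SE 0.0848, exact permutation p = 0.7, adjusted p = 0.7), and with 3 libraries a group this does not show that the ratio was equal.

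Cdk1 (NCBI gene 12534; chr10:69335146-69352938, minus strand) had an FPKM of 8.94, 8.76 and 9.44 in controls and 14.1, 13.5 and 15.0 with MMK-1. Replicate 3 was the highest library in each group. The mean went from 9.05 ± 0.349 to 14.2 ± 0.72 (SD, n = 3 each), with a log2 fold change of 0.60 (SE 0.0519, limma adjusted p = 1.1e-05). This is close to the change of Cdk4, and the ratio of the kinases overlapped between the groups, at 0.0733 to 0.0801 in controls and 0.0773 to 0.0796 with MMK-1. Its log2 difference was 0.03 (SE 0.0387, exact permutation p = 0.5, adjusted p = 0.583).

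The promoters of Ccnb1 and Cdk1 are shown because both genes belong to the set expressed late in the cycle, which is known for CCAAT boxes, bound by NF-Y, and for the cell cycle genes homology region (CHR), bound by the MuvB complex. The windows, from RefSeq on GRCm38.p6, lie at chr13:100786437-100786736 and chr10:69352863-69353162, both on the minus strand, and capitals mark the CCAAT box on either strand, the CHR motif TTTGAA, and in Cdk1 an E2F match.
Ccnb1: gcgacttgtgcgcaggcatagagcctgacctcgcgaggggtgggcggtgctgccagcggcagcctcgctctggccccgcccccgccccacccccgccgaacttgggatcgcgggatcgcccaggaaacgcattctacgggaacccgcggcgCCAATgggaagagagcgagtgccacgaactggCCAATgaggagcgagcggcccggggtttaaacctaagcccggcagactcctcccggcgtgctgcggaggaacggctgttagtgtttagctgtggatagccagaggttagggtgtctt
Cdk1: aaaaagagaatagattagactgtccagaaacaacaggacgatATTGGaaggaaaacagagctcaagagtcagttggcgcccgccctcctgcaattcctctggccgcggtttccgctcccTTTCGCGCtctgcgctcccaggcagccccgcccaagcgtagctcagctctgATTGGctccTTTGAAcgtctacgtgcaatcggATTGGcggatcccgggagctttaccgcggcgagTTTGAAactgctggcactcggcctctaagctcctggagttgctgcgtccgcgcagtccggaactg
Ccnb1 held CCAAT at -99 and -67, and neither TTTGAA nor the E2F motif in this window. Cdk1 held the CCAAT box on the opposite strand (ATTGG) at -208, -80 and -48, TTTGAA at -71 and -15, and the E2F motif TTTCGCGC at -131. Searched on both strands, CCAAT occurs in 37.4% of all windows and TTTGAA in 17.8%. The E2F motif, searched as TTTGGCGC, TTTCGCGC, TTTCCCGC or TTTGCCGC, occurs in 2.3%. The 4 motifs were chosen after the sequences had been seen, and no letter shown belongs to more than 1 motif. CCAAT also matched in the downstream window of Ccnd3, at -108, and Ccne1 held none of the 4 motifs.

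**Figure D3:**
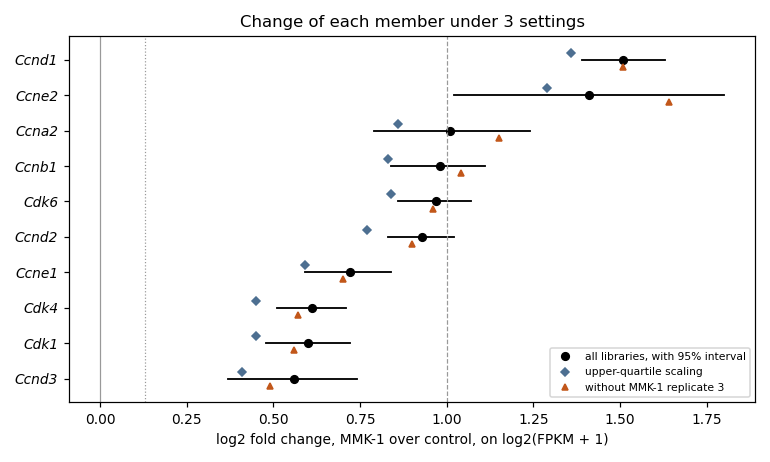
Log2 fold change of MMK-1 over control on the log2(FPKM + 1) scale for each gene, with all libraries (black, with its 95% interval), after upper-quartile scaling (blue) and without MMK-1 replicate 3 (orange); the dashed line is a fold of 2, and the dotted line the median of all genes tested, 0.13. All values lie right of the dotted line, and Ccna2, Ccnb1, Cdk6 and Ccnd2 lie near the fold threshold.

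Ordered by level, the controls read Cdk4, Ccna2, Ccnd2, Ccnb1, Ccnd3, Cdk1, Ccnd1, Ccne1, Cdk6 and Ccne2, and no neighbours in this order overlapped in their libraries. With MMK-1 the order was Cdk4, Ccna2, Ccnd2, Ccnb1, Ccnd3, Ccnd1, Cdk1, Ccne2, Cdk6 and Ccne1. Ccna2 overlapped with Ccnd2, Ccnd3 with Ccnd1, and Ccne2 with Cdk6 in that group, so these neighbours could not be ranked. Ccnd1 passed from below Cdk1 in all controls to above it in all MMK-1 libraries.

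MMK-1 replicate 3 did not deviate alike in all 10 genes. On the log2(FPKM + 1) scale it lay below the mean of replicates 1 and 2 by 0.68 in Ccne2, by 0.41 in Ccna2 and by 0.17 in Ccnb1. In plain FPKM these were 58.0%, 74.9% and 88.3% of that mean. It was the highest MMK-1 library in Ccnd2, Ccnd3, Cdk4, Cdk6 and Cdk1, where it exceeded that mean by 0.02 to 0.20 on the same log2 scale. The median deviation of all genes tested was 0.067.

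GC content moved with this deviation over all genes. Replicate 3 was lower by a median of 0.30 in the 614 genes tested with under 40% GC and higher by 0.10 in the 2255 with 55% GC or more. Ccne2, with 36.3%, had the lowest GC content of the 10 genes, and Ccnd3, with 56.7%, the highest. A correction for GC content left replicate 3 lower by 0.19 in Ccne2. It also took the log2 fold change of Ccne2 against controls from 1.41 to 1.12, so it lowered replicates 1 and 2 relative to the controls. Which MMK-1 libraries departed from the controls by GC content was not tested. In Ccna2, with 46.1% GC, it left a difference of -0.39 against -0.41 before. After the correction the log2 fold changes of MMK-1 against control ran from 0.61 in Ccnd3 to 1.60 in Ccnd1.

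Counts for the other gene lists stand against the shares of all genes tested at the adjusted threshold, 48.5% higher and 24.7% lower. Counts after upper-quartile scaling stand against 34.8% higher and 37.0% lower. Of 16 other cyclins tested, 9 rose, 1 fell and 6 did not pass, with a median log2 fold change of 0.33, and after upper-quartile scaling 8 were higher and 5 lower with a median of 0.19. Ccnb2, the B cyclin that partners CDK1 alongside cyclin B1, rose most, from 18.9 ± 0.83 to 34.0 ± 0.992 FPKM (SD, n = 3 each) with a log2 fold change of 0.81 (limma adjusted p = 9.1e-07). Ccnc, the cyclin of the Mediator kinase module, followed with 0.67, but its MMK-1 libraries were uneven, at 8.07, 7.54 and 4.34 FPKM, with replicate 3 again the lowest, and the value without that library was 0.91 (limma adjusted p = 1.4e-06). Ccnh, the cyclin of the CDK-activating kinase, fell by 0.17 on the log2 scale (limma adjusted p = 0.018), a call lost without Control replicate 2 or MMK-1 replicate 2, where the highest adjusted p was 0.084. Ccng2, which is linked to exit from the cycle, had a log2 fold change of -0.10 and did not pass (adjusted p = 0.25).

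Of 13 other CDKs tested, 7 rose, 4 fell and 2 did not pass, a split near that of all genes tested (48.5% higher, 24.7% lower). Their median log2 fold change was 0.27. After upper-quartile scaling 7 were higher and 6 lower with a median of 0.15, against 34.8% and 37.0% of all genes tested. Cdk2, the kinase of cyclins E and A, rose most, from 9.79 ± 0.402 to 16.6 ± 0.86 FPKM (SD, n = 3 each), a log2 fold change of 0.71 (limma adjusted p = 4.5e-06). Cdk19, a Mediator kinase, rose by 0.58 on the log2 scale. Cdk18 fell by 0.44 and Cdk11b, a kinase linked to transcription and splicing, fell by 0.31 on that scale. Cdk7, which activates the other kinases of the cycle, and Cdk20 were the remaining genes that fell, by 0.24 and 0.25 on the log2 scale, and are named after their values were seen.

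Of 8 tested phosphatases, inhibitory kinases and CKS subunits that act on CDKs, 7 rose and 1 fell, with a median log2 fold change of 0.79. Of all genes tested, 48.5% were higher and 24.7% lower, or 34.8% and 37.0% after upper-quartile scaling. After that scaling 6 of the list were higher and 1 lower, with a median of 0.64. Cks1b, a small subunit that binds CDKs and helps SKP2 recognise p27, rose from 10.8 ± 1.61 to 25.9 ± 0.328 FPKM (SD, n = 3 each), a log2 fold change of 1.2 (limma adjusted p = 3.5e-06). The list holds activators and inhibitors alike, since the CDC25 phosphatases remove the phosphates that WEE1 and PKMYT1 add. Mnat1, an assembly factor of the CDK-activating kinase with cyclin H, was the gene that fell, by 0.14 on the log2 scale (limma adjusted p = 0.024), and is named after its values were seen. This small fall passed in 8 of 15 alternative fits, and it was lost with TPM, limma-voom on fragments or the replicate block, without Control replicate 1 or 2 and without MMK-1 replicate 1 or 2, with adjusted p up to 0.088 over the alternatives.

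Among the pocket proteins, which D cyclin kinases phosphorylate, the directions differed. Rbl1, which encodes p107 and is itself an E2F target, rose by 0.50 on the log2 scale. Rbl2, which encodes p130 and is known from resting cells, fell by 0.22. Rb1 had FPKM values of 24.1, 24.1 and 23.7 in controls and 30.7, 31.9 and 21.1 with MMK-1, a log2 fold change of 0.19 that did not pass (limma adjusted p = 0.22). MMK-1 replicate 3 lay below all controls and the others above, and without it the log2 fold change was 0.37 (limma adjusted p = 1.7e-05). This was the 1 of 15 alternative fits in which Rb1 passed, and after upper-quartile scaling its log2 fold change was 0.03.

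Of 10 tested genes that act in cyclin destruction, 5 rose, 2 fell and 3 did not pass, again near the shares of all genes (48.5% and 24.7%), with a median log2 fold change of 0.22, and of 0.09 after upper-quartile scaling. Skp2, the F-box protein that marks p27 and cyclin E for destruction, rose by 0.82 on the log2 scale. Fbxo5, which encodes EMI1, an inhibitor of the anaphase-promoting complex, rose by 0.65. Fbxo4, an F-box protein reported to target cyclin D1, fell by 0.50, and Btrc, named after its values were seen, fell by 0.17. The call of Btrc passed in 8 of 15 alternative fits and was lost with TPM or the replicate block, without Control replicate 1, 2 or 3 and without MMK-1 replicate 1 or 3, with adjusted p up to 0.14 over the alternatives and of 0.051 without MMK-1 replicate 3. Fbxo31, likewise linked to cyclin D1, had a log2 fold change of -0.18 and did not pass (limma adjusted p = 0.057).

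Several marker lists moved with the 10 genes, where 48.5% of all genes tested were higher and 24.7% lower. After upper-quartile scaling these shares were 34.8% and 37.0%. The log2 fold change was 0.94 for Mki67, 0.98 for Top2a and 0.49 for Pcna, against the median of 0.95 for the 10 genes. Of the stem cell markers, 5 of 5 rose, and their summed FPKM was 44.3 to 44.8 in control libraries and 306 to 320 in MMK-1 libraries. Of 8 enterocyte markers, which mark cells that have left the cycle, 7 fell and 1 rose (7 and 0 after upper-quartile scaling), and their sum was 8620 to 8740 in controls and 5020 to 5420 with MMK-1. Paneth cell markers rose in 5 of 5, with sums of 389 to 430 and 1270 to 1390. Of 5 goblet cell markers 4 rose and 1 fell (3 and 1 after upper-quartile scaling), and of 5 enteroendocrine markers 3 rose (2 after that scaling), both with a median log2 fold change of 0.28 that this scaling took to 0.12. The 4 tuft cell markers stayed under the filter on low values. The part of these cell types in the changes of the cyclin and CDK genes was not tested.

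The tissue label was borne out by its markers, with a sum of 3060 to 3100 FPKM over 6 epithelial genes in controls and 2400 to 2590 with MMK-1. The epithelial genes did not fall as a set. Krt19 and Krt8 fell, Krt18 and Cdh1 rose, and Epcam and Cldn7 did not pass. Their median log2 fold change was -0.03, or -0.19 after upper-quartile scaling. The defining leukocyte genes Ptprc, Tyrobp and Cd3e were near 0 in both groups. Itgam and Cd68, which macrophages carry, were the leukocyte markers that passed the filter, and both fell, by 0.79 (limma adjusted p = 9.2e-06) and 0.96 (limma adjusted p = 0.00015) on the log2 scale, while Csf1r went from 0.152 to 0.00703 FPKM under the filter. The 6 leukocyte markers in the table summed to 5.38 to 6.19 FPKM in controls and 1.77 to 2.89 with MMK-1, the 8 fibroblast and muscle markers to 1.2 to 1.23 and 0.36 to 0.465, nearly all of it Pdgfrb in controls (1.1 FPKM, against 0.265 with MMK-1), and the 2 endothelial markers to at most 0.226. These sums were lower or near 0 with MMK-1, where the cyclins and CDKs were higher, and their part in those changes was not tested.

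All 10 genes carried the KEGG annotation for the cell cycle, shared by 154 genes of the table. The Wnt pathway was listed for the 3 D cyclins only, PI3K-Akt signaling for 7 of the 10 and p53 signaling for 9.

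The genes whose profiles lay nearest to each of the 10 were taken by the root mean square difference over the 6 libraries of log2(FPKM + 1), after centring each gene on its own mean and leaving out the other members of the 10. Nearest to Ccnd1 were Epn3 and Ang4, at distances of 0.0387 and 0.0459. For Ccnd2 they were Mcf2l and Csnk1e, for Ccnd3 Cyba and Pidd1, for Cdk4 Ppp1r8 and Xpo5, and for Cdk6 Fignl1 and Slc29a1. For Ccne1 they were Apobec3 and Aldh1l2, for Ccnb1 Bmpr1a and Wapl, for Ccna2 Alg6 and Kif18a, a mitotic kinesin, and for Cdk1 Rbbp4 and D17H6S56E-5. Ccne2 had the most distant neighbours, Dach1 at 0.097 and Psip1 at 0.111.

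Reads of overlapping genes limit some of these values. Exons of 7 of the 10 genes overlap exons of a gene on the opposite strand in GENCODE, by up to 818 bases for Ccnd1 with LTO1, 641 for Cdk4 with Tspan31, 474 for Ccne2 with Ints8, 428 for Ccna2 with Exosc9 and 361 for Ccnd3 with Bysl. Ccnd2 and Cdk6 overlap noncoding genes by up to 372 and 320 bases. Whether the counting used the strand is not given in the sources used here, so reads from these stretches cannot be assigned with certainty.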

How the data were processed

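RNA of 3 control and 3 MMK-1 libraries was measured by RNA-seq. The authors deposited FPKM values per gene, and the submitters' processing notes list HISAT2, HTSeq, R 3.2.0, DESeq2 and mm10 without roles. Every gene's FPKM values were whole multiples of the value of 1 fragment, which gave whole fragments, to within 0.02 of a fragment, for 100% of the 20676 genes above 0, and the library totals. These totals cover counting error only.

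Groups were compared with limma 3.58.1 under R 4.3.3, with a trend in the variance and no replicate block, on log2(FPKM + 1) of genes whose mean FPKM reached 1. The fit was tested on simulated data with known changes. Single genes and the 7 ratios were compared by exact two-sided permutation tests. Alternatives covered scaling, filter, pseudocount, TPM, a fold of 1.5, fragments with limma-voom, GC content, a replicate block and leaving out each library. GC content from GENCODE vM21 transcripts matched 98.7% of genes tested and was corrected by local regression with a span of 0.3, and the fit of this correction with a block was added after seeing the data. Coordinates come from GENCODE vM21 (GRCm38). Promoter windows from RefSeq (GRCm38.p6) matched 6 of the 10 genes. Python 3.11.15 with pandas 2.3.3 and scipy 1.17.1 was used.

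The 10 genes and the gene lists were chosen with earlier results of these data known. From each of the lists of other cell cycle genes (cyclins, CDKs, their regulators, pocket proteins and cyclin destruction), the genes named were those with a fold of at least 2 or, where there were none, the 2 largest changes in each direction, together with all proliferation markers and the 2 nearest profiles of each of the 10. FPR family genes were left out.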

Additional observations from a re-analysis of the deposited data

How the results depend on the processing

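In 15 alternative fits, all 10 genes kept their direction and an adjusted p of at most 0.05, and the highest was 0.0038, for Ccnd3. The number at a fold of at least 2 depended on the scale: Cdk6 and Ccnb1 joined Ccnd1, Ccne2 and Ccna2 to give 5 with TPM, with a pseudocount of 0.1 and with limma-voom, and 9 passed a fold of 1.5. With each library left out in turn, 2 to 4 passed. Of all genes, 358 were higher at a fold of at least 2, against 558 with TPM, 676 with a pseudocount of 0.1, 726 with limma-voom, 230 with median-of-ratios scaling, 225 with upper-quartile scaling and 1502 at a fold of 1.5. Of those lower, 385 became 855 at a fold of 1.5. With a pseudocount of 1, the log2 difference in ratio was 0.58 for Ccnd1 to Ccnd2, 0.35 for Cdk6 to Cdk4 and -0.02 for Cdk1 to Cdk4. Correction for GC content gave 0.51 for Cdk6 to Cdk4. With each library left out in turn, the difference for Ccnb1 to Ccna2 ran from -0.11 to 0.03, and only without MMK-1 replicate 2 was it above 0. The cause of these shifts was not tested.

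Same-numbered libraries deviated from their group means with correlations of 0.025, -0.04 and 0.028, which showed no pairing by replicate number. Deviations from means of 3 libraries cannot exclude a pairing. With the replicate block the log2 fold change of Ccnd3 was still 0.56 (adjusted p = 0.0008 in the limma test), all 10 genes were higher, and 5024 genes in place of 5118 were higher at the adjusted threshold. Of the 10 genes, Ccne1 and Ccne2 rested on the fewest fragments.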

Other observations

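The CDK-activating kinase phosphorylates CDK1, CDK2, CDK4 and CDK6 on their activation loop and consists of CDK7, cyclin H and MNAT1. While the genes of its substrates rose with MMK-1, those of its 3 subunits were lower, a set singled out after the values were seen. Cdk7 had an FPKM of 3.78, 4.16 and 3.79 in controls and 2.97, 3.32 and 3.23 with MMK-1. This gave a log2 fold change of -0.24 (SE 0.0585, limma adjusted p = 0.0058), which passed in 15 of 15 alternative fits, with values from -0.36 to -0.20. Ccnh had an FPKM of 11.6 ± 0.65 in controls and 10.2 ± 0.383 with MMK-1 (SD, n = 3 each), and Mnat1 of 5.72 ± 0.176 and 5.11 ± 0.0631. In neither did the groups overlap, a pattern with lower MMK-1 libraries found in 26.3% of all genes tested. Ccnh and Mnat1 passed in 13 and 8 of the 15 alternative fits. The changes are small, and 24.7% of all genes tested were lower at this threshold.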
